A study of Mus musculus with 6 samples.

Results

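The smooth muscle contractile genes are described here in E9.5 mouse hearts that lack the muscle methyltransferase SMYD1. They are *Acta2*, *Actg2*, *Tagln*, *Cnn1*, *Myh11*, *Myl9*, *Smtn*, *Cald1*, *Des* and *Lmod1*, which were chosen by name as smooth muscle actins, myosin and regulatory proteins that early cardiomyocytes also express. All 10 were found among the 54532 genes of the table of raw counts, and all 10 passed the filter on low counts that left 19372 genes for testing. RNA-seq of poly A RNA was performed on individual hearts, 3 *Smyd1-KO* and 3 WT, so that each replicate is a separate embryo. The *Smyd1-KO* embryos are homozygous for a null allele that is carried in every cell, not in cardiomyocytes alone, and come from a line of *Smyd1*+/- mice of the Jackson Laboratory. All embryos were at E9.5, embryos of both sexes were used in the study, no treatment was given, and the genetic background is not given in the sources used here.

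Smooth muscle contracts when myosin, phosphorylated on its regulatory light chain by a calmodulin-dependent kinase, pulls on actin filaments that are decorated with tropomyosin, calponin and caldesmon. Transcription of most of these genes depends on serum response factor (SRF), which binds the CArG box and acts with myocardin or the myocardin-related factors. In the early heart tube many of the same genes are active in cardiomyocytes before the cardiac and skeletal isoforms replace them, so that their RNA at this stage does not by itself mark a smooth muscle cell.

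Promoter sequence is shown first, because the CArG box is the element that SRF binds. RefSeq windows of GRCm38.p6, from 250 bases before to 50 bases after the start of a transcript, were found for 7 of the 10 genes, with 8 windows in all because *Cald1* has more than 1 start. *Tagln*, *Actg2* and *Myh11* were not matched. A CArG box in the strict sense has only A or T in its inner 6 letters, and a CArG-like box may hold 1 other letter there. Both kinds were searched on both strands. CArG-like boxes were found in the windows of *Myl9* and *Acta2*, 2 in each, and only the first *Myl9* box was strict. They are printed in the direction of the gene with 10 bases on each side and the box in capitals.
Myl9 box 1, chr2:156775293-156775322, plus strand: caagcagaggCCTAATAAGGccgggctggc
Myl9 box 2, chr2:156775355-156775384, plus strand: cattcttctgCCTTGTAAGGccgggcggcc
Acta2 box 1, chr19:34255438-34255467, minus strand: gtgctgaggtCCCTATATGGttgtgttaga
Acta2 box 2, chr19:34255388-34255417, minus strand: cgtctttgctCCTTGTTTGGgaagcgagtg

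The *Myl9* boxes began 161 and 99 bases before the RefSeq start and lay upstream of the gene in GENCODE as well. The *Acta2* boxes began 84 and 34 bases before the RefSeq start, but GENCODE starts the gene 217 bases earlier, so that both fall in an annotated exon there. A CArG-like box was thus in 2 of the 8 member windows and a strict box in 1. None was found in the windows of *Des*, *Lmod1*, *Cald1*, *Cnn1* and *Smtn*. Of all 32851 windows in the RefSeq table, 9.98% held a CArG-like box and 1.63% held a strict box. The MCAT element, bound by TEAD factors and spelled CATTCC on either strand, was found in the windows of *Acta2*, *Smtn* and *Lmod1* and in the first *Cald1* window, which is 4 of 8, against 14.7% of all windows. In *Acta2* it did not overlap either box. These matches describe the letters in these windows and do not show that a factor binds there.

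Total counts ran from 48627825 to 64217529 per heart. *Smyd1* itself was lower in the mutants without being absent. Scaled to library size as CPM, it read 101, 222 and 206 in *Smyd1-KO* hearts 1, 2 and 3 against 414, 379 and 270 in WT hearts 1, 2 and 3 (log2 fold change -1.01, edgeR quasi-likelihood adjusted *P*=0.0973, DESeq2 adjusted *P*=0.00534). *Smyd1-KO* heart 1 stood apart from the others. The summed CPM of 7 cardiomyocyte markers (*Myh6*, *Myh7*, *Tnnt2*, *Actn2*, *Myl7*, *Nppa*, *Nkx2-5*) was 5169 there, against 10937 and 11013 in the other mutants and 7028 to 11096 in WT, where heart 3 was the lowest. None of these 7 genes was at 0 in any heart. Their edgeR log2 fold changes went both ways, at -0.71 for *Myh6*, 0.62 for *Myh7* and 1.44 for *Nppa*. Those of *Tnnt2*, *Actn2*, *Myl7* and *Nkx2-5* were -0.21, -0.11, -0.09 and -0.15. Every mutant lay below every WT heart for *Myh6*, and the groups overlapped for the others. The skeletal muscle regulator *Myog* was at 2.61 CPM in *Smyd1-KO* heart 1 and at 0.0450 CPM or less in each other heart, and the 3 skeletal muscle markers summed to 5.10 CPM there and to 0.751 CPM or less elsewhere. Erythroid markers (5 genes) summed to 21.1 to 243 CPM in the mutants and 661 to 872 CPM in WT, and epicardial markers (4 genes) to 105 to 244 CPM against 93.9 to 113 CPM. Outflow tract and second heart field markers (5 genes) summed to 162 to 217 CPM in the mutants and 217 to 274 CPM in WT, and cushion mesenchyme markers (4 genes) to 375 to 994 CPM against 268 to 424 CPM. Endothelial and endocardial markers (6 genes) summed to 545 to 852 CPM against 519 to 634 CPM, and foregut endoderm markers (3 genes) to 12.6 to 28.6 CPM against 11.9 to 30.7 CPM. Single genes within these sums went opposite ways. *Kdr* was higher (log2 fold change 0.70) and *Nfatc1* lower (-0.83), both without overlap. *Nkx2-1* was lower without overlap (-2.56), while *Foxa2* (0.72) and *Shh* (0.33) overlapped. The cushion marker *Postn* varied widely, at 150, 27.0 and 618 CPM in the mutants against 39.5, 7.04 and 36.9 CPM. Mural cell markers (5 genes) summed to 279 to 326 CPM in *Smyd1-KO* and 249 to 282 CPM in WT, and mitochondrially encoded genes took 0.636 to 0.758% of the CPM against 1.13 to 1.35%. Values per heart are listed throughout in the order of replicates 1, 2 and 3, mutants before WT. The part of these differences in the results that follow was not tested.

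None of the 10 smooth muscle contractile genes was called in either direction, where a call required an edgeR adjusted *P* below 0.05 together with a log2 fold change of 0.5 or more in size. Among all tested genes, 2.86% were called higher and 1.42% were called lower in *Smyd1-KO*. The largest difference was that of *Myh11*, the smooth muscle myosin heavy chain, which had a mutant mean of 0.523 times its WT mean and missed the call narrowly. *Myh11* and *Smtn* were also the members whose mutant hearts all lay below all WT hearts. No overlap with lower mutant values was found for 2 of 10 members and for 15.5% of all genes. At an unadjusted *P* under 0.05 the same 2 members were lower and 0 were higher, against 11.9% and 13.1% of all genes. DESeq2 called 1 member, *Myh11*, lower and 0 higher, against 3.31% and 5.98% of all genes. The log2 fold change was below 0 for 9 of 10 members, against 50.2% of all genes, with a median of -0.34 against -0.0026 over all genes. It was below 0 for 7 members without *Smyd1-KO* heart 1 and for 6 without WT heart 1. In RNA from whole hearts, fewer cells of a type and less RNA per cell cannot be told apart.

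**Figure D1:**
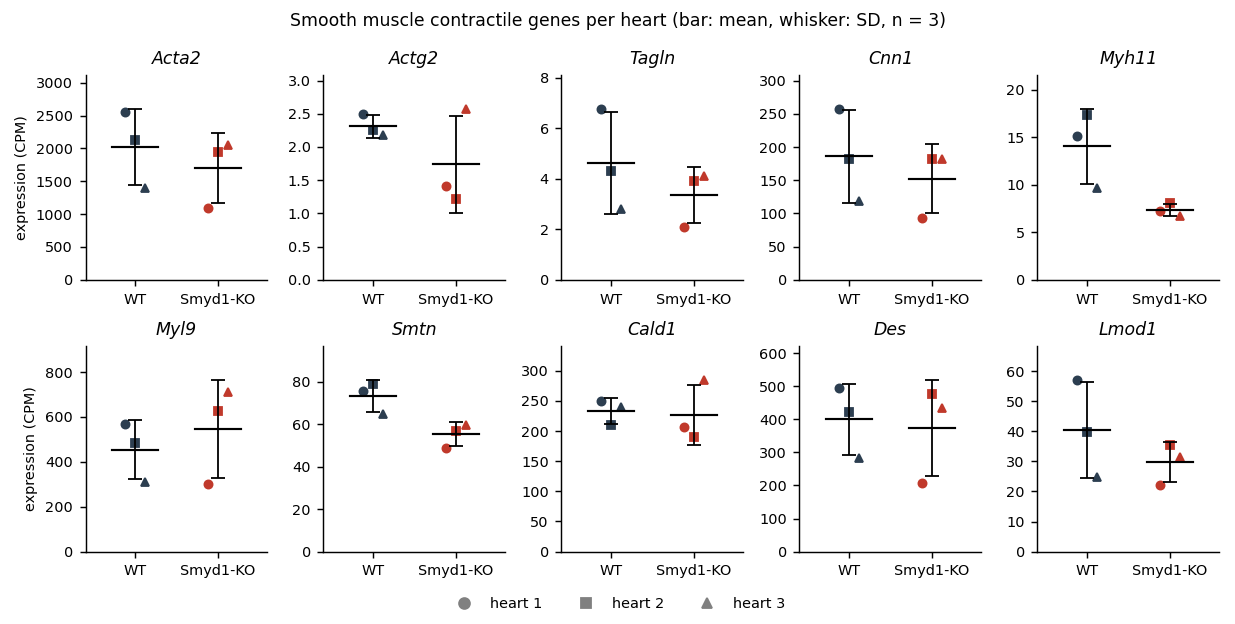
Expression of the 10 genes in each heart, in CPM on a linear axis that starts at 0, with WT on the left and Smyd1-KO on the right of each panel. Symbols give the heart number, the bar is the mean and the whisker is the SD (n = 3); only Myh11 and Smtn show no overlap, and heart 1 is the lowest mutant for 7 genes.

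Actins come first, as they form the thin filament. *Acta2*, smooth muscle alpha-actin (chromosome 19, 34241090 to 34255590, minus strand, mm10), read 1089, 1948 and 2055 CPM in the mutants against 2546, 2124 and 1402 CPM in WT. The groups overlapped widely, since 2 of the 3 mutants lay above WT heart 3. The log2 fold change was -0.25 with a standard error of 0.291 (edgeR adjusted *P*=0.631). It was -0.02 without *Smyd1-KO* heart 1, -0.05 without WT heart 1 and -0.46 without WT heart 3. *Actg2*, the gamma-actin of enteric smooth muscle (chromosome 6, 83512905 to 83536265, minus strand), was barely detected, at 1.42, 1.22 and 2.58 CPM against 2.50, 2.25 and 2.18 CPM. These values rest on 69 to 149 counts per heart, and the highest and the lowest heart were both mutants. Its log2 fold change was -0.41 with a standard error of 0.305 (edgeR adjusted *P*=0.446), and it ran from -0.20 without *Smyd1-KO* heart 2 to -0.81 without *Smyd1-KO* heart 3.

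Within the muscle actins, *Acta2* held a smaller part of the counts in the mutants. Its share of the counts of *Acta1*, *Acta2*, *Actc1* and *Actg2* was 24.0, 22.8 and 23.4% in *Smyd1-KO* hearts 1, 2 and 3 and 24.6, 26.6 and 27.1% in WT hearts 1, 2 and 3. The groups did not overlap. The means were 23.4% ± 0.595 (SD, n = 3) and 26.1% ± 1.34 (SD, n = 3), a difference of -2.66 percentage points with an exact two-sided permutation *P*=0.1, the smallest that 3 against 3 hearts can give. The 95% Wilson interval of a single heart reached at most 0.178 points to either side, which covers counting error only, so the spread between hearts was larger than that. Per exonic length, the share was 18.3% against 20.6%. The skeletal actin *Acta1* was at 379, 701 and 780 CPM against 593, 456 and 263 CPM and the cardiac actin *Actc1* at 3064, 5879 and 5930 CPM against 7216, 5398 and 3506 CPM, both with overlapping groups. Per 100 *Tnnt2* counts, a measure described further on, *Acta1* was higher in every mutant (mean 44.1 against 26.2) and so was *Actc1* (354 against 325), while *Acta2* overlapped (122 against 124). *Acta1* was higher without overlap per *Actn2* and per *Myl7* count as well, and *Actc1* overlapped on both.

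The thick filament genes differed from each other in their pattern. *Myh11* (chromosome 16, 14194535 to 14291372, minus strand), the heavy chain that marks differentiated smooth muscle, was at 7.22, 8.05 and 6.74 CPM in the mutants and at 15.2, 17.3 and 9.63 CPM in WT. Every mutant heart lay below every WT heart, and the mutants lay close together. Its log2 fold change was -0.93 with a standard error of 0.226 (edgeR adjusted *P*=0.0594). DESeq2 gave the same size with an adjusted *P* of 0.00126, and over 17 fits of the difference from 0 the adjusted *P* of *Myh11* ran from 0.00126 to 0.206 and its log2 fold change from -1.14 to -0.76. Tested against a log2 fold change of 0.5 with glmTreat, its adjusted *P* was 0.401. Without WT heart 3 it was called in edgeR (log2 fold change -1.14, adjusted *P*=0.0459), where 0.207% of all genes were called lower and 0.656% higher, and it was called with no filter on low counts (-0.93, adjusted *P*=0.0396), where 1.01% were called lower and 2.08% higher. Without *Smyd1-KO* heart 1 its log2 fold change was -0.92.

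Set against the cardiac heavy chains, the *Myh11* values overlapped. These chains themselves went opposite ways, with log2 fold changes of -0.71 for *Myh6* and 0.62 for *Myh7*, the latter with overlapping groups. *Myh11* held 0.246, 0.129 and 0.107% of the counts of *Myh6*, *Myh7* and *Myh11* in *Smyd1-KO* hearts 1, 2 and 3, and 0.265, 0.252 and 0.225% in WT hearts 1, 2 and 3. *Smyd1-KO* heart 1 thus lay within the WT range and the other mutants below it. The means were 0.161% ± 0.0748 (SD, n = 3) and 0.247% ± 0.0202 (SD, n = 3), with an exact two-sided permutation *P*=0.2. The nonmuscle heavy chains *Myh9*, *Myh10* and *Myh14* had log2 fold changes of -0.11, 0.02 and 0.22 with overlapping groups.

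*Myl9* (chromosome 2, 156775420 to 156781658, plus strand), the regulatory light chain of smooth muscle myosin, was the member with a positive estimate. The mutants read 300, 627 and 710 CPM and the WT hearts 568, 482 and 310 CPM. Mutant hearts 2 and 3 lay above all WT hearts, while heart 1 lay below all of them. Its log2 fold change was 0.27 with a standard error of 0.341 (edgeR adjusted *P*=0.666). It was 0.56 without *Smyd1-KO* heart 1 and 0.47 without WT heart 1, but 0.035 without *Smyd1-KO* heart 3, 0.058 without WT heart 3 and 0.16 without *Smyd1-KO* heart 2. The nonmuscle light chains *Myl12a* and *Myl12b* had log2 fold changes of 0.14 and -0.27.

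Calponin, transgelin and caldesmon bind the actin filament and modulate its interaction with myosin. *Cnn1*, basic calponin (chromosome 9, 22099216 to 22109630, plus strand), was at 92.8, 182 and 182 CPM in the mutants and at 258, 182 and 118 CPM in WT. Mutant hearts 2 and 3 sat at the level of WT heart 2, in the middle of the WT range. The log2 fold change was -0.29 with a standard error of 0.337 (edgeR adjusted *P*=0.641), and it was -0.03 without *Smyd1-KO* heart 1, 0.03 without WT heart 1 and -0.52 without WT heart 3. *Cald1*, caldesmon (chromosome 6, 34598500 to 34775473, plus strand), was at 207, 191 and 284 CPM against 250, 210 and 241 CPM. It differed least of the 10 genes, with a log2 fold change of -0.04 and a standard error of 0.160 (edgeR adjusted *P*=0.906).

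*Tagln*, transgelin or SM22-alpha (chromosome 9, 45929619 to 45936058, minus strand), was at 2.08, 3.89 and 4.10 CPM in the mutants and at 6.76, 4.28 and 2.79 CPM in WT. Its groups overlapped, and its log2 fold change was -0.46 with a standard error of 0.382 (edgeR adjusted *P*=0.497). It was -0.07 without WT heart 1, -0.21 without *Smyd1-KO* heart 1 and -0.72 without WT heart 3. The *Tagln* level is uncertain. In GENCODE 62.4% of its exonic length is overlapped by the antisense gene *Gm48529* and 5.43% by *Pcsk7*, and 40.3% of its distinct 75-base stretches also occur in these 2 genes. Without the strand setting of the counting, reads of *Tagln* and its antisense partner cannot be told apart, and *Gm48529* was counted at 22, 98 and 78 reads in the mutants and 174, 199 and 107 reads in WT.

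*Smtn*, smoothelin (chromosome 11, 3517523 to 3540612, minus strand), is a cytoskeletal protein of contractile smooth muscle. The mutants read 48.8, 57.0 and 59.7 CPM and the WT hearts 75.5, 79.0 and 64.5 CPM. All mutants lay below all WT hearts, with *Smyd1-KO* heart 3 and WT heart 3 the nearest to each other. Its log2 fold change was -0.40 with a standard error of 0.111 (edgeR adjusted *P*=0.0788). The adjusted *P* was 0.0404 in DESeq2, where the fold change stayed under the limit for a call, and it ran from 0.0231 to 0.255 over the 17 fits. Antisense *Gm11946* overlaps 16.3% of the *Smtn* exons but was counted at only 9 to 19 reads per heart, against 2373 to 5014 for *Smtn*.

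*Lmod1* and *Des* complete the set. *Lmod1*, leiomodin 1, which nucleates actin filaments in smooth muscle (chromosome 1, 135324807 to 135368065, plus strand), was at 22.3, 35.4 and 31.5 CPM against 57.0, 39.7 and 24.8 CPM. WT heart 3 lay among the mutants, and the log2 fold change was -0.44 with a standard error of 0.302 (edgeR adjusted *P*=0.403). It was -0.11 without WT heart 1, -0.27 without *Smyd1-KO* heart 1 and -0.70 without WT heart 3. *Des*, desmin, the intermediate filament of all muscle types (chromosome 1, 75360329 to 75368579, plus strand), was at 208, 478 and 433 CPM against 495, 422 and 283 CPM. Its groups overlapped, and its log2 fold change of -0.10 with a standard error of 0.326 (edgeR adjusted *P*=0.878) became 0.19 without *Smyd1-KO* heart 1, 0.09 without WT heart 1 and -0.32 without *Smyd1-KO* heart 2.

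The levels per kilobase of exonic sequence spanned a wide range. In WT the mean CPM per kilobase was 922 ± 264 (SD, n = 3) for *Acta2* and 390 ± 113 for *Myl9*, followed by *Des* at 107 ± 28.6 and *Cnn1* at 67.9 ± 25.5. *Cald1* at 19.4 ± 1.75, *Smtn* at 16.7 ± 1.72 and *Lmod1* at 10.3 ± 4.08 came next, and *Tagln* at 2.32 ± 1.01, *Myh11* at 1.85 ± 0.522 and *Actg2* at 1.48 ± 0.109 were the lowest. The place of *Tagln* in this order is as uncertain as its level, given the overlap with *Gm48529* described above. The ranges over hearts overlapped between *Des* and *Cnn1*, *Cald1* and *Smtn*, *Tagln* and *Myh11*, and *Myh11* and *Actg2*, so the order within these pairs is not resolved. In *Smyd1-KO* hearts the order was the same down to *Tagln*, and *Myh11*, at 0.966 ± 0.0870 (SD, n = 3), ranked below *Actg2*, at 1.12 ± 0.470, with overlapping ranges. *Acta2* and *Myl9* overlapped in the mutants, at 773 ± 241 and 470 ± 187 CPM per kilobase. Exonic length counts the exons of all transcripts of a gene, which lowers the value of a gene with many alternative exons such as *Cald1*.

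**Figure D2:**
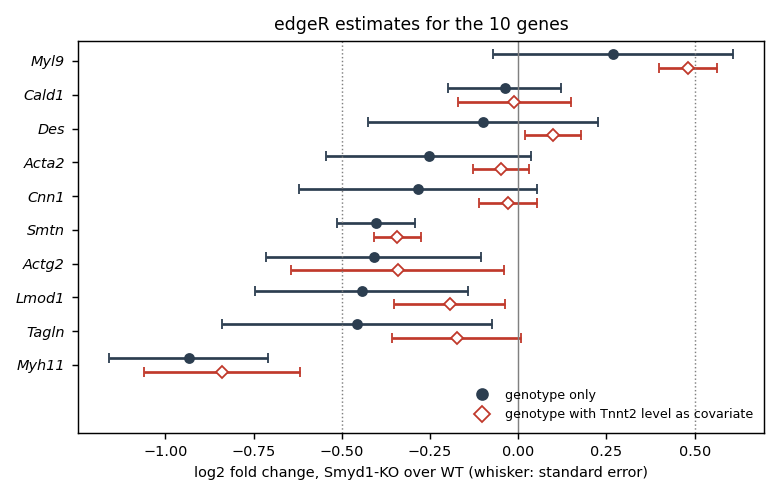
Log2 fold changes of the 10 genes, Smyd1-KO over WT, from edgeR with genotype alone (filled circles) and with the Tnnt2 level as a covariate (open diamonds); whiskers are standard errors and dotted lines mark the limit of 0.5 used for a call. Myh11 lies at -0.93 and -0.84, and Myl9 moves from 0.27 to 0.48 with a shorter whisker.

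At the median, though not for each gene, differences between hearts of the same genotype were larger for these genes than over all tested genes. The median within-group SD of log2 CPM was 0.524 in *Smyd1-KO* and 0.442 in WT over the 10 members, against 0.205 and 0.183 over all tested genes. *Smyd1-KO* heart 1 was the lowest of all 6 hearts for 7 members. WT heart 3 was the lowest WT heart for 9 members, and WT heart 1 was the highest WT heart for 8. The range was widest for *Tagln*, with a ratio of 3.26 between the highest and the lowest heart, and narrowest for *Cald1*, with a ratio of 1.49.

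Some members followed each other closely over the 6 hearts. After each gene's own mean was subtracted, the root mean square difference of log2 CPM was 0.091 between *Tagln* and *Cnn1*, 0.093 between *Acta2* and *Cnn1* and 0.12 between *Acta2* and *Des*. It was 0.69 between *Myh11* and *Myl9*, the pair farthest apart. The cardiac troponin T gene *Tnnt2*, a cardiomyocyte marker, lay as near to these genes as they lay to each other, at 0.060 from *Acta2*, 0.074 from *Des* and 0.079 from *Cnn1*. *Myh11*, *Actg2* and *Cald1* lay farthest from *Tnnt2*, at 0.50, 0.46 and 0.44. The 6 points share their libraries and depths, and both genotypes are in them.

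**Figure D3:**
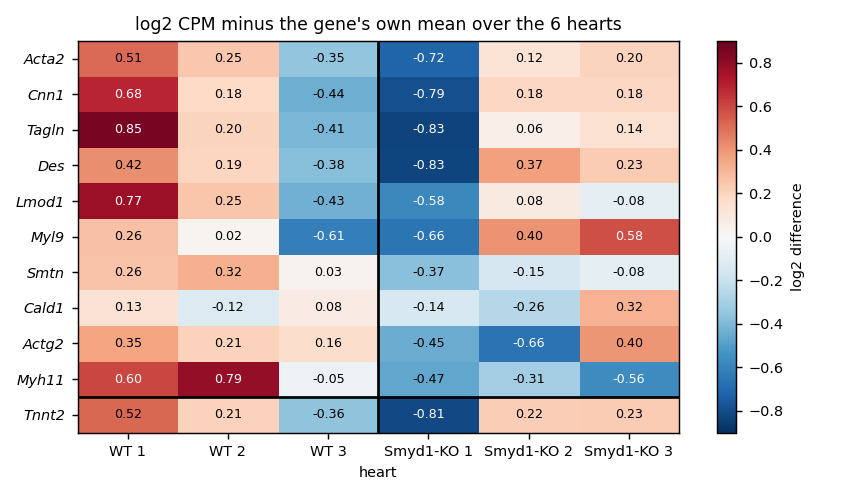
Log2 CPM of each gene in each heart minus the gene's own mean over the 6 hearts, with WT left and Smyd1-KO right of the black line and Tnnt2 in the bottom row; red is above and blue below the mean. Acta2, Cnn1, Tagln, Des and Lmod1 show the Tnnt2 pattern, with WT 1 high and Smyd1-KO 1 low, whereas Myh11 and Smtn lie below their own mean in all 3 mutants.

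Outside the set, the genes whose pattern over the 6 hearts was nearest to the median pattern of the members were *Endog*, *Pde4a*, *Lhfp*, *Tpm1* and *Hsd17b11*, with root mean square differences of 0.058, 0.065, 0.071, 0.072 and 0.073 on the log2 scale. The median over all 13041 genes compared was 0.42. *Tpm1*, a tropomyosin of the heart and of smooth muscle, was at 1199, 2005 and 2039 CPM in the mutants and at 2374, 1896 and 1435 CPM in WT. WT heart 1 was the highest and *Smyd1-KO* heart 1 the lowest, as for *Acta2*.

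Because *Tnnt2* followed so many members, each was also expressed per 100 *Tnnt2* counts of the same heart, a measure chosen after the values had been seen. *Tnnt2* itself read 832, 1705 and 1708 CPM in the mutants against 2093, 1688 and 1134 CPM in WT. *Acta2* was then at 131, 114 and 120 against 122, 126 and 124, and *Cnn1* at 11.2, 10.7 and 10.7 against 12.3, 10.8 and 10.4. Their ranges, which spanned more than 2-fold in CPM, narrowed to ratios of 1.15 and 1.18 between the highest and the lowest heart, with the genotypes overlapping.

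*Myl9* was higher in every mutant on this measure. The mutants read 36.1, 36.8 and 41.6 per 100 *Tnnt2* counts and the WT hearts 27.2, 28.6 and 27.3. The means were 38.2 ± 2.99 (SD, n = 3) and 27.7 ± 0.771 (SD, n = 3), a ratio of 1.38 with an exact two-sided permutation *P*=0.1, the smallest possible. It was also higher without overlap per *Actn2* count, with a ratio of 1.28, and per *Myl7* count, with a ratio of 1.27. *Acta1* and the cardiac heavy chain *Myh7* were also higher without overlap on all 3 denominators, with larger ratios of 1.68 and 1.72 per *Tnnt2* count. The cardiac heavy chain *Myh6* was lower without overlap on all 3 denominators, with a ratio of 0.691 per *Tnnt2* count. *Des*, at 25.0, 28.0 and 25.4 against 23.6, 25.0 and 25.0, was higher by a narrow margin, and it overlapped with *Actn2* or *Myl7* as the denominator.

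*Myh11* was not lower in every mutant on this measure, since it was at 0.868, 0.472 and 0.395 per 100 *Tnnt2* counts against 0.724, 1.03 and 0.849. *Smyd1-KO* heart 1, with the fewest *Tnnt2* counts, lay in the WT range. *Smtn* was at 5.87, 3.34 and 3.49 against 3.61, 4.68 and 5.69, and *Cald1* at 24.8, 11.2 and 16.6 against 11.9, 12.4 and 21.2. For both, the hearts with little *Tnnt2* had the high ratios in both genotypes. Per *Actn2* count, *Acta2*, *Tagln* and *Myh11* were lower in the mutants without overlap, and per *Myl7* count *Tagln* alone was. With 3 denominators and 10 genes, 30 such comparisons of members were made. *Acta1*, *Actc1*, *Myh6* and *Myh7* were also compared on each denominator. None of these comparisons can reach a *P* under 0.05. The share of all genes without overlap on such ratios was not computed, so these counts have no background.

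**Figure D4:**
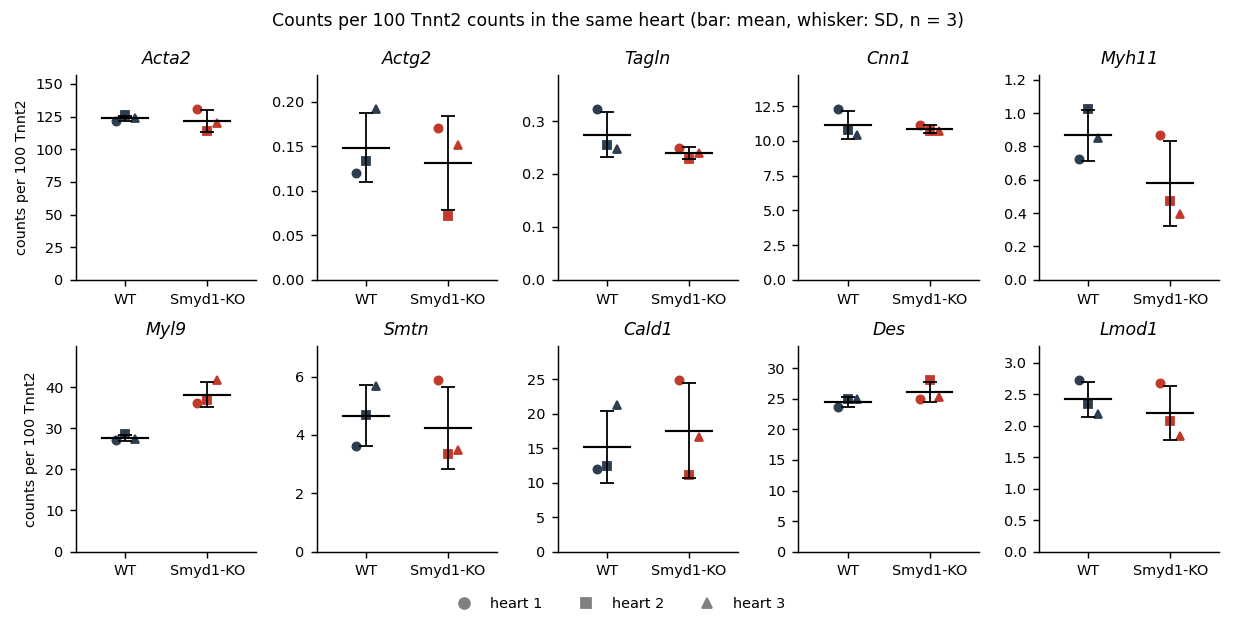
Counts of each gene per 100 Tnnt2 counts of the same heart, on linear axes that start at 0, with WT left and Smyd1-KO right in each panel. Symbols give the heart number, the bar is the mean and the whisker is the SD (n = 3); Myl9 lies at 36.1 to 41.6 in the mutants and 27.2 to 28.6 in WT.

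With the log2 CPM of *Tnnt2* as a covariate in edgeR, also chosen after the values had been seen, the standard errors of the genes that follow *Tnnt2* shrank. *Acta2* had a log2 fold change of -0.05 with a standard error of 0.0793 and *Cnn1* one of -0.03 with a standard error of 0.0832. *Myl9* was at 0.48 with a standard error of 0.0821 (edgeR adjusted *P*=0.0150), just under the fold change needed for a call. Over the 17 fits its adjusted *P* ran from 0.0150 to 0.968. *Myh11* was called lower in this fit (log2 fold change -0.84, edgeR adjusted *P*=0.0491), where 3.13% of all genes were called lower and 5.55% higher. *Smtn* was at -0.34 with an edgeR adjusted *P* of 0.0231. *Tnnt2* is itself measured in these hearts, and an effect of the genotype on it is removed along with any difference in cardiomyocyte content.

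The wider contractile pathway held no call either. The 4 lists held 65 further names for 63 genes, since *Mkl1* and *Mkl2* were also listed under their newer names, and all 63 were tested. Of these, 0 were called, and 2 were higher and 9 lower at an unadjusted *P* under 0.05 in edgeR. A log2 fold change above 0 was found for 24 and below 0 for 39. Among all tested genes 2.86% were called higher and 1.42% lower, and 13.1% were higher and 11.9% lower at that unadjusted limit. All mutants lay below all WT hearts for 9 of the 63 and above them for 2, against 15.5% and 15.9% of all tested genes. The median log2 fold change of these 63 genes was -0.11. DESeq2 called 1 of them higher, *Actg1*, and 3 lower, *Smtnl1*, *Synpo2* and *Pdlim3*, against 5.98% and 3.31% of all genes.

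Relatives of the members that are not restricted to smooth muscle (19 genes) had a median log2 fold change of 0.02. The largest estimates were those of the cytoplasmic actin *Actg1* (0.51), *Acta1* (0.50) and vimentin, *Vim* (0.36), and the smallest those of *Smtnl1* (-1.76), *Lmod2* (-1.09) and *Myl12b* (-0.27). *Actg1* was at 2097, 1620 and 1637 CPM in the mutants and at 1338, 1128 and 1282 CPM in WT, without overlap (edgeR adjusted *P*=0.0706). *Lmod2*, the leiomodin of cardiac muscle, was at 5.90, 15.6 and 12.7 CPM against 38.4, 19.6 and 14.9 CPM (edgeR adjusted *P*=0.184). *Smtnl1*, a smoothelin-like protein, was below 0.7 CPM in each heart.

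SRF and its cofactors were listed under 12 names for 10 genes, since *Mkl1* and *Mkl2* are the older names of *Mrtfa* and *Mrtfb*. In the main edgeR fit all 10 had a log2 fold change below 0, against 50.2% of all genes, with a median of -0.30. *Srf* was at 186, 209 and 194 CPM in the mutants and at 255, 192 and 150 CPM in WT, a log2 fold change of -0.02 with a standard error of 0.181. That of *Srf* was above 0 with the replicate number as a block (0.014) and with the *Tnnt2* covariate (0.097). Myocardin, *Myocd*, the coactivator of SRF in cardiac and smooth muscle, was at 30.1, 41.3 and 42.0 CPM against 47.9, 65.7 and 46.7 CPM. No mutant reached the lowest WT heart, and the log2 fold change was -0.50 (edgeR adjusted *P*=0.140). The LIM protein *Fhl1*, at 139, 151 and 152 CPM against 198, 206 and 165 CPM, had a log2 fold change of -0.37 (edgeR adjusted *P*=0.0872), and *Mkl1* one of -0.30 with overlapping groups. *Klf4* was at -0.41, and *Fhl2* and *Prdm6* were at -0.25 and -0.27, with overlapping groups.

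Contraction signalling (15 genes) lay around 0, with a median of -0.02 and estimates from -0.25 to 0.24. *Ppp1cb*, a catalytic subunit of myosin phosphatase, was highest at 0.24 (edgeR adjusted *P*=0.163), followed by *Prkg1* at 0.15 and *Rock2* at 0.10. The calmodulin gene *Calm2*, at -0.21 (edgeR adjusted *P*=0.192), had all mutants below all WT hearts. *Mylk*, the kinase that phosphorylates the myosin light chain, was at 18.6, 11.2 and 9.21 CPM against 12.7, 17.8 and 15.9 CPM, a log2 fold change of -0.25 with a standard error of 0.270. *Ppp1r12b* was also at -0.25.

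Thin filament, adhesion and associated proteins (19 genes) had a median of -0.12. *Pdlim3*, a PDZ-LIM protein of the Z-disc, was at 23.0, 33.3 and 30.8 CPM against 61.1, 62.3 and 37.4 CPM (log2 fold change -0.88, edgeR adjusted *P*=0.0649). *Synpo2*, an actin-binding protein also known as myopodin, was at 46.1, 89.4 and 77.0 CPM against 131, 128 and 96.5 CPM (log2 fold change -0.74, edgeR adjusted *P*=0.115). Both had all mutants below all WT hearts, as had *Filip1l* at -0.48 and *Actn1* at -0.25. This is 4 of 19 genes, against 15.5% of all tested genes. *Itga8*, *Hspb1* and *Nexn* had the largest estimates, at 0.49, 0.34 and 0.24, with overlapping groups.

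**Figure D5:**
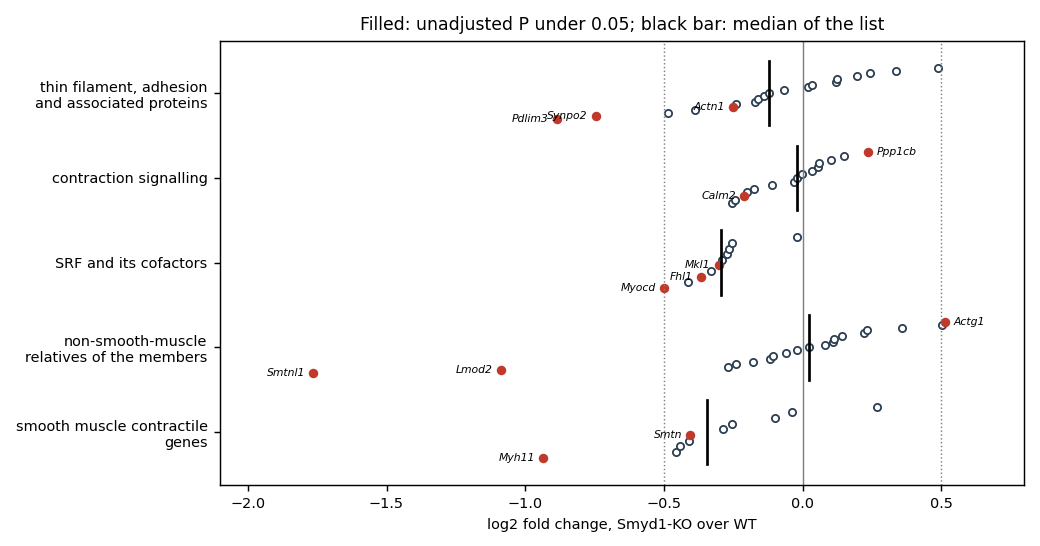
Log2 fold change, Smyd1-KO over WT, of the 10 smooth muscle contractile genes (bottom) and of the 63 tested genes of 4 related lists; each point is a gene, filled points have an unadjusted edgeR P under 0.05, the black bar is the median of the list and dotted lines mark 0.5. The medians are -0.34 for the 10 genes, 0.02 for their relatives, -0.30 for SRF and its cofactors, -0.02 for contraction signalling and -0.12 for the thin filament list.

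Markers of mural cells, the pericytes and smooth muscle cells of vessels, did not move as a group. *Pdgfrb* was at 67.3, 44.2 and 54.1 CPM in the mutants and at 43.7, 41.2 and 53.7 CPM in WT, *Notch3* at 215, 224 and 193 CPM against 138, 186 and 187 CPM, and *Rgs5* had a log2 fold change of 0.28 with overlapping groups. *Cspg4*, the proteoglycan NG2, went the other way, at 6.17, 15.3 and 14.3 CPM against 31.0, 35.5 and 23.2 CPM (log2 fold change -1.32, edgeR adjusted *P*=0.0671). *Kcnj8* was below 0.6 CPM in each heart and did not pass the filter. Of the 4 tested genes 0 were called by edgeR, with 0 higher and 1 lower at an unadjusted *P* under 0.05, against 13.1% and 11.9% of all genes. *Cspg4* was called lower by DESeq2 (-1.32, adjusted *P*=0.000507) and with the *Tnnt2* covariate (-1.18, edgeR adjusted *P*=0.00830). *Myh11* and *Cspg4* were both lower in every mutant, whereas *Notch3* was higher in every mutant. Which cells carry the RNA of these genes was not tested in whole hearts.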

How the data were processed

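Poly A RNA of the hearts was sequenced as paired-end reads and aligned by the authors to mm10 with STAR in bcbio-nextgen. The deposited raw counts per gene were used for all results. The second deposited table holds a normalized signal, which the authors made by dividing the counts by a DESeq2 size factor per heart (0.830 to 1.14), and was used only to check this. The counting tool, annotation release and strand setting are not given in the sources used here. Groups came from the labels.

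Counts were tested in R 4.3.3 with edgeR 4.0.16 (filterByExpr, TMM, quasi-likelihood F-test, Benjamini-Hochberg adjustment over 19372 genes), after checks on simulated data. CPM use the TMM factors, and log2 CPM a prior count of 2. DESeq2 1.42.0 and limma 3.58.1 (voom) were alternatives, as was glmTreat. Shares and ratios were compared by exact permutation in Python 3.11.15 (pandas 2.3.3, scipy 1.17.1), and plots were drawn with matplotlib 3.10.9. Positions and exonic lengths are from GENCODE vM21 (GRCm38). Library totals were 48627825 to 64217529, no molecular identifiers are named, and replicates of a genotype differed beyond counting noise.

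The genes and lists were chosen with earlier results of these data known. Named were the members, the cardiomyocyte and mural markers and *Myog* (the other marker lists are given as sums), *Smyd1*, the 5 genes nearest to the members' median pattern (mean log2 CPM at least 1), and the genes of each list with an unadjusted *P* under 0.05 or among the 3 highest and 3 lowest estimates. *Gm48529*, *Gm11946* and *Pcsk7* were named for their overlap. *Kdr*, *Nfatc1*, *Nkx2-1*, *Foxa2*, *Shh* and *Postn* were named as single genes within the marker sums. A gene of the contraction signalling list is not reported here and was left out of the list's counts.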

Additional observations from a re-analysis of the deposited data

How the results depend on the processing

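DESeq2, no filter on low counts, leaving out WT heart 3, and the *Tnnt2* covariate each called 1 member lower, which was *Myh11* each time, with log2 fold changes of -0.93, -0.93, -1.14 and -0.84. No fit called a member higher. Leaving out single hearts gave 0 to 1 members called lower and 0 to 0 higher, and 0 to 0 calls in either direction among the other listed genes. Among those, DESeq2 called 1 higher and 3 lower, against 5.98% and 3.31% of all genes. No filter called 0 higher and 1 lower, against 2.08% and 1.01%. The *Tnnt2* covariate called 2 higher (*Acta1*, *Hspb1*) and 4 lower (*Smtnl1*, *Lmod2*, *Pdlim3*, *Synpo2*), against 5.55% and 3.13%. Leaving out single hearts gave log2 fold changes of -0.23 to 0.074 for *Cald1*, above 0 without *Smyd1-KO* heart 1, *Smyd1-KO* heart 2 or WT heart 1, -0.32 to 0.19 for *Des*, above 0 without *Smyd1-KO* heart 1 or WT heart 1, and -0.52 to 0.032 for *Cnn1*, above 0 without WT heart 1. With the covariate that of *Des* was 0.098. Below 0 were 6 to 9 of the 10 members over all fits, with 7 without *Smyd1-KO* heart 1 and 6 without WT heart 1. The log2 ratio to *Tnnt2* ran from -0.077 to 0.022 for *Acta2* and from -0.48 to 0.14 for *Actg2*, both above 0 without *Smyd1-KO* heart 2, from -0.087 to 0.033 for *Cnn1*, above 0 without WT heart 1, and from -0.10 to 0.47 for *Cald1*, below 0 without *Smyd1-KO* heart 1. That of *Des* was -0.018 with *Actn2* and -0.030 with *Myl7* in place of *Tnnt2*. The *Acta2* share difference was -3.42 to -2.16 points and that of *Myh11* -0.129 to -0.0596 points when single hearts were left out. The cause of these changes was not tested.

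Replicate numbers are shared by samples of different genotype. Deviations of same-numbered hearts had a mean correlation of -0.151 against 0.0733 for other pairs, and no heart correlated best with its own number. With the replicate number as a block, 0 members were called, against 0.289% of all genes higher and 0.0155% lower. *Myh11* was then at -0.90 (edgeR adjusted *P*=0.135) and *Smtn* at -0.40 (edgeR adjusted *P*=0.212). *Actg2* rests on 69 to 149 counts per heart, the fewest of the 10 genes in each heart.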
